A study of Mus musculus with 17 samples.

Results

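The 9 mouse genes described here encode the Kv1 potassium channels that were measured in the hippocampus and their beta subunits, and they were chosen by name: Kcna1 to Kcna6 for the alpha subunits and Kcnab1 to Kcnab3 for the beta subunits. All 9 were among the 55450 genes in the count lists, and all 9 were among the 17615 genes with enough reads to test. RNA-seq libraries came from the hippocampi of adult mice in 3 groups. In the control sgLacZ group, called sham control Ctrl-dCas9A in the study (5 libraries), no kainic acid was given, whereas the epileptic sgLacZ group (epileptic Ctrl-dCas9A, 6 libraries) and the epileptic sgKcna1 group (epileptic Kcna1-dCas9A, 6 libraries) had received kainic acid in the amygdala, a model of temporal lobe epilepsy. All 3 groups were C57BL/6J mice of both sexes that carried a pair of AAV9 vectors injected in the right ventral hippocampus, with dCas9-VP64, an activator domain carried by a Cas9 that cannot cut DNA, under a doxycycline-inducible promoter, and a guide RNA. The transactivator was driven by the Camk2a promoter, which is biased to excitatory neurons, and doxycycline was given in the diet. So RNA of the whole sample included cells that the vectors did not reach. The guide sgLacZ is a control directed to LacZ and sgKcna1 is directed to the promoter of Kcna1. None of the libraries came from control mice given sgKcna1.

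Kv1 channels are tetramers of alpha subunits, which form the pore and may be mixed, with beta subunits bound on the inner side. In axons Kv1.1 (Kcna1), Kv1.2 (Kcna2), Kv1.4 (Kcna4) and Kv1.6 (Kcna6) hold back repetitive firing and transmitter release, and loss of Kcna1 or Kcna2 function causes seizures in mice. Kv1.3 (Kcna3) is best known from lymphocytes and microglia, and Kv1.5 (Kcna5) from heart and smooth muscle. Kvbeta1 (Kcnab1) confers rapid inactivation, and Kvbeta2 (Kcnab2), the main beta subunit of brain axons, helps to carry the channel to the axon membrane. Kvbeta3 (Kcnab3) belongs to the same family.

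The genes of the alpha subunits lie in clusters. In the assembly GRCm38.p6, Kcna5 (chr6:126532551-126535555), Kcna1 (chr6:126636463-126645801) and Kcna6 (chr6:126708328-126740834) are neighbours, with 100.9 kb between Kcna5 and Kcna1 and 62.5 kb between Kcna1 and Kcna6. Kcna3 (chr3:107036162-107038129) and Kcna2 (chr3:107090883-107115005) are 52.8 kb apart, and Kcna4 (chr2:107290589-107326804) stands on another chromosome. The beta subunit genes Kcnab1 (chr3:64949212-65378225), Kcnab2 (chr4:152390744-152477549) and Kcnab3 (chr11:69326258-69333041) are unlinked to each other and to the chr6 cluster. RefSeq lists transcripts that overlap Kcna6, Kcnab1, Kcnab2 and Kcna2, which can matter for counts made without strand information.

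The guide to Kcna1 (sg19 in the study) is shown because the contrast between the epileptic groups turns on it, with the 3-base PAM, the motif that Cas9 needs beside its site, in capitals.
sg19 and PAM: agtcaatgatcacatcctccTGG
It had exactly 1 exact match in the mouse genome mm9, at chr6:126595930-126595952 on the + strand. Kcna1 is on the - strand there, and the match lay outside its exons, at position -111 from the start of the gene model. RefSeq promoter windows (250 bases before to 50 after a start, GRCm38.p6) were at hand for 7 of the 9 genes, with 11 starts. The sites most like the guide in those windows, each next to an NGG motif and read in the guide's orientation, are printed below for Kcna4 and the first start of Kcnab2, which came nearest to the guide, and for Kcna5 and Kcna6, the neighbours of Kcna1. Bases shared with the guide are in capitals.
Kcna4: AagCgAgGAgCAaATCCcggagg
Kcnab2: AGcCAATaATaggcTgCTagggg
Kcna5: AGTggAgaAgagagTgCTCtggg
Kcna6: tGaCtATGgagAgATggagtggg
Of the 20 guide bases, 9 differed in Kcna4 and in Kcnab2, 11 in Kcna5 and 12 in Kcna6. Of 32851 promoter windows of the same length, 15.3% held a site at least as close as 9 differences and 79.2% one as close as 11. These are descriptions of letters and not of binding.

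Each library held 11839240 to 28311328 reads in genes, so that 3 reads, the floor of detection, equalled 0.102 to 0.280 CPM (counts scaled to a common library size by TMM); this covers counting error only. Markers of dentate granule cells, CA pyramidal cells, interneurons and glia were detected in every library. Markers of neighbouring tissue were detected too, with summed choroid plexus markers at 292 to 12537 CPM. Summed neocortex markers (4 of 5 matched) ranged from 82.2 to 118 CPM in control sgLacZ, 90.9 to 120 in epileptic sgLacZ and 85.5 to 204 in epileptic sgKcna1 libraries. A pair of libraries stood apart in several Kv1 genes. Epileptic sgKcna1 replicate 12 was the shallowest library and had 41.5% of its reads unmapped, and epileptic sgLacZ replicate 4 was the deepest and had 11.0% unmapped. The share was 24.1% ± 3.38 (SD, n = 5) in control sgLacZ, 18.6% ± 5.01 (n = 6) in epileptic sgLacZ and 25.2% ± 8.15 (n = 6) in epileptic sgKcna1 libraries. In 6 of 17 libraries (2 control sgLacZ, 1 epileptic sgLacZ and 3 epileptic sgKcna1, replicate 12 among them) reads of Xist and of Y-linked genes stood side by side, with the smaller of both at 4.10% to 22.5% of their sum, against at most 0.986% in the others. Summed thalamus markers (6 of 6) were 231 CPM in replicate 12 and 242 in replicate 4, against 114 to 183 in the other 15 libraries. The labels do not say that each library came from its own animal, so the p-values measure only the spread between these samples.

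Kcna1, the targeted gene, did not pass the test in any comparison, and its median was lowest in the epileptic sgKcna1 group. In control sgLacZ libraries it had 25.5, 33.7, 34.6, 37.6 and 44.0 CPM. Epileptic sgLacZ libraries ranged from 16.9 to 56.7 CPM with a median of 27.6. Epileptic sgKcna1 libraries ranged from 13.9 to 132.5 CPM with a median of 19.1. The highest value of the group was replicate 12, and the next highest was 29.5 CPM. Replicates 12 and 4, the highest in Kcna1 of all 17 libraries, were also the highest in thalamus markers, whose part in the Kcna1 values was not tested. 4 of the 6 epileptic sgKcna1 libraries lay below every control library, 1 lay above every control library, and the ranges of all 3 groups overlapped. Kcna1 thus gave no check of the guide labels, and epileptic sgKcna1 stands throughout for the libraries labelled so.

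The log2 fold change of Kcna1 between epileptic sgKcna1 and epileptic sgLacZ was 0.32 (SE 0.47, 95% interval -0.66 to 1.31, edgeR quasi-likelihood adjusted p = 0.706). Without replicate 12 it was -0.65, and without replicates 4 and 12 it was -0.37 (adjusted p = 0.609). Against control sgLacZ the change was -0.22 (SE 0.49, adjusted p = 0.779) in epileptic sgLacZ and 0.11 (SE 0.50, adjusted p = 0.969) in epileptic sgKcna1 libraries. The latter became -0.87 without replicates 4 and 12 (adjusted p = 0.0637). So the direction in the group given sgKcna1 was set by 1 library, while no estimate passed the threshold of 0.05. In RNA of whole tissue fewer cells of a type and less RNA per cell cannot be told apart, and a change in the cells that carried the vectors is diluted by all others.

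**Figure D1:**
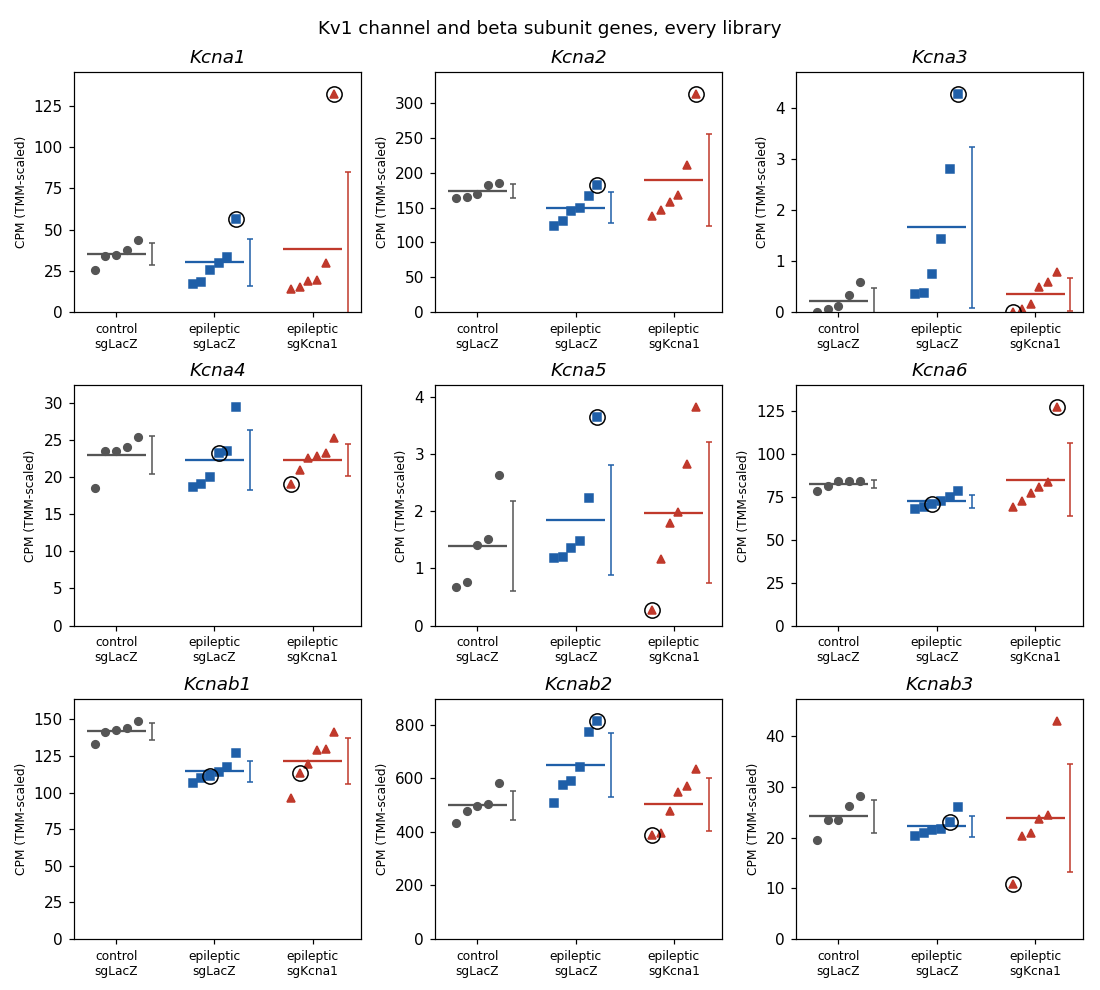
CPM (TMM-scaled, linear axes from 0) of each of the 9 genes in every library, by group. Points are libraries, horizontal lines are group means and vertical bars are 1 SD (cut at 0 where they would fall below it), and circles mark epileptic sgLacZ replicate 4 and epileptic sgKcna1 replicate 12; the circled library of epileptic sgKcna1 is the highest of all 17 for Kcna1, Kcna2 and Kcna6.

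Kcna2, the usual partner of Kcna1 in axonal channels, was far more abundant and less variable. It had 164, 166, 170, 182 and 186 CPM in control sgLacZ libraries. Epileptic sgLacZ libraries had 123 to 182 CPM (median 147), 4 of them below every control library. Epileptic sgKcna1 libraries had 138 to 314 CPM (median 163), with replicate 12 again highest. The groups overlapped in each comparison. The log2 fold change was -0.21 (SE 0.17, adjusted p = 0.387) in epileptic sgLacZ against control sgLacZ, 0.34 (SE 0.16, adjusted p = 0.263) between the epileptic groups and 0.13 (SE 0.17, adjusted p = 0.875) in epileptic sgKcna1 against control sgLacZ.

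A ratio within a library does not depend on scaling between libraries, so Kcna1 was also expressed per 100 reads of Kcna2. Control sgLacZ libraries had 15.0 to 26.9 Kcna1 reads per 100 Kcna2 reads (median 19.0) and epileptic sgLacZ libraries 11.7 to 31.1 (median 20.01). Epileptic sgKcna1 libraries had 8.27 to 42.3 (median 12.6). The mean log2 ratio was -2.32 ± 0.32 (SD, n = 5) in control sgLacZ, -2.42 ± 0.49 (n = 6) in epileptic sgLacZ and -2.81 ± 0.81 (n = 6) in epileptic sgKcna1 libraries. None of the 3 differences passed a two-sided exact permutation test adjusted over the 3 comparisons, with differences of -0.10 (p = 0.719, adjusted p = 0.719), -0.39 between the epileptic groups (p = 0.338, adjusted p = 0.506) and -0.48 from control sgLacZ to epileptic sgKcna1 (p = 0.251, adjusted p = 0.506). The smallest p this test allows is 0.00216 for 6 against 6 libraries, and it is larger where the control group enters.

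The ratio turned on replicate 12. Without it, the exact permutation test put the epileptic sgKcna1 group lower than epileptic sgLacZ by a log2 ratio of -0.70 (p = 0.0260, adjusted p = 0.0390) and lower than control sgLacZ by -0.80 (p = 0.00794, adjusted p = 0.0238). The p against control sgLacZ is the smallest that the test allows for groups of these sizes. Without replicates 4 and 12, a removal chosen after seeing the data, the exact test gave -0.55 (adjusted p = 0.0714) and -0.80 (adjusted p = 0.0238). In none of these settings was the mean ratio of Kcna1 to Kcna2 higher in the epileptic sgKcna1 group.

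**Figure D2:**
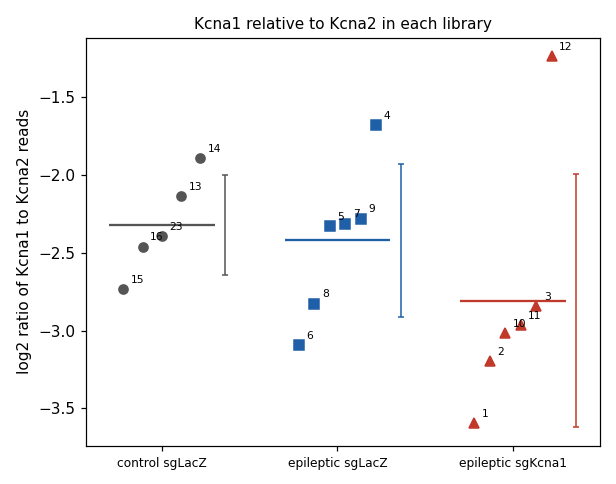
Log2 ratio of Kcna1 to Kcna2 reads in each library, by group. Points are libraries with their replicate numbers, lines are group means and vertical bars are 1 SD; epileptic sgKcna1 replicate 12, at -1.24, is the highest of all and the other libraries of its group lie in the lower part of the plot.

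Over all 9 genes, epileptic sgLacZ libraries differed from control sgLacZ in 2: Kcna3 was higher and Kcnab1 lower. Of all genes tested in this comparison 11.0% passed the threshold, 7.26% higher and 3.76% lower, so 2 of 9 is to be read against that share. Without the adjustment over genes 3 of the 9 had p under 0.05, where 34.7% of all genes had. The median log2 fold change of the 9 genes was -0.12, against 0.02 for all genes tested. Between epileptic sgKcna1 and epileptic sgLacZ none of the 9 genes passed the threshold in edgeR, nor did any other gene (0%), and the genes with unadjusted p under 0.05 were 2 of the 9 (Kcna3 and Kcnab2) and 19.2% of all genes. DESeq2 gave no p for Kcna1 and no adjusted p for Kcna3 in this comparison, none of the other 7 genes passed in it, and 134 genes in all did. Between epileptic sgKcna1 and control sgLacZ none of the 9 and no other gene passed (0%) in edgeR. The unadjusted p was under 0.05 for 1 of the 9 (Kcnab1) and for 6.77% of all genes, and DESeq2, which again gave no p for Kcna1, called none of the other 8 and 39 genes in all. The 3 comparisons share their libraries, each group entering a pair of them, so they are not independent of each other.

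**Figure D3:**
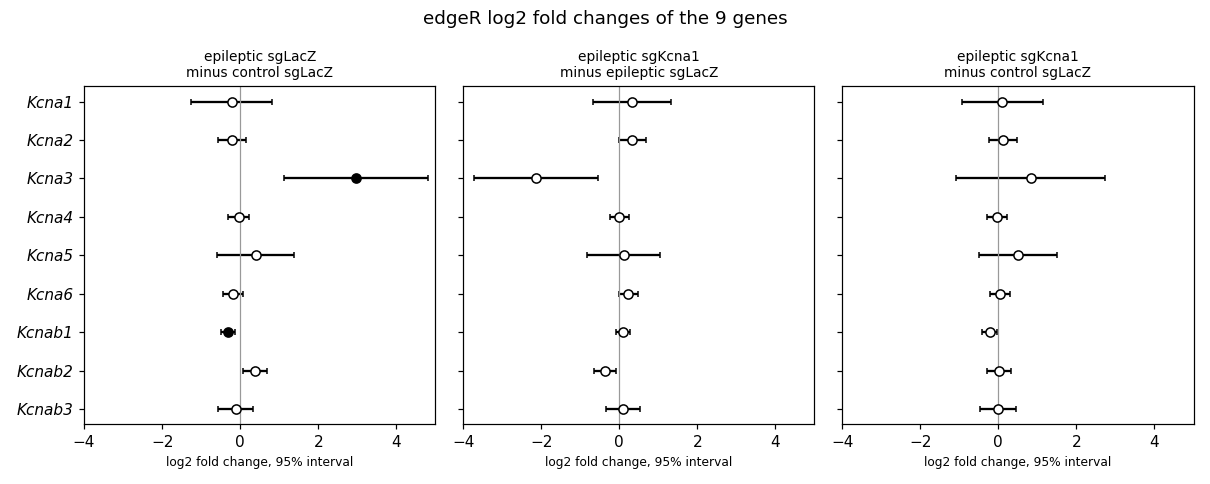
Log2 fold changes of the 9 genes in the 3 comparisons from edgeR, with 95% intervals; filled points passed an adjusted p of 0.05. Only Kcna3 and Kcnab1 in epileptic sgLacZ against control sgLacZ are filled, and the intervals of Kcna3 are the widest, from 1.12 to 4.80 there.

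Kcna3, whose product Kv1.3 sets the membrane potential of T cells and microglia, was a scarce transcript in every group. Control sgLacZ libraries held 0, 1, 2, 8 and 9 reads, or 0 to 0.600 CPM, where the replicate with 0 reads could hold up to 0.125 CPM. Epileptic sgLacZ libraries held 7 to 126 reads, with CPM from 0.346 through a median of 1.09 to 4.29. Epileptic sgKcna1 libraries held 0 to 18 reads, or 0 to 0.791 CPM with a median of 0.333. Replicates 4 and 7 of the epileptic sgLacZ group were highest, 4 of its 6 libraries lay above every control library, and the groups overlapped. The log2 fold change in epileptic sgLacZ against control sgLacZ was 2.96 (SE 0.88, 95% interval 1.12 to 4.80), a fold of 7.79, with an adjusted p = 0.0424 in edgeR.

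The call of Kcna3 rested on few reads and on few libraries. Without epileptic sgLacZ replicate 4 the log2 fold change of Kcna3 was 2.41 with an adjusted p = 0.113, and leaving out any other single library gave 2.61 to 3.64. No more than 6 of the 17 fits without a library kept the adjusted p under 0.05, those without epileptic sgLacZ replicate 5 or 8 or epileptic sgKcna1 replicate 1, 2, 11 or 12. Without epileptic sgLacZ replicate 4, 7 or 9 no gene of all tested passed, so a call lost there is not particular to Kcna3. Without replicates 4 and 12 together the log2 fold change of Kcna3 was 2.42 (adjusted p = 0.0458). Kcna3 was lower in libraries with a larger share of unmapped reads (Spearman's rho -0.83 over 17 libraries, a description), and with that share as a covariate the log2 fold change was 0.96 (adjusted p = 0.399). With sex as a covariate it was 2.74, also short of the threshold.

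The difference of Kcna3 between epileptic sgKcna1 and epileptic sgLacZ libraries did not pass the threshold, with a log2 fold change of -2.13 (SE 0.76, 95% interval -3.72 to -0.54, adjusted p = 0.213, edgeR). Against control sgLacZ it was 0.83 (SE 0.91, adjusted p = 0.843). Of the cells that Kv1.3 is known from, the summed markers of microglia (4 of 4 genes) ranged from 152 to 184 CPM in control sgLacZ, 144 to 197 in epileptic sgLacZ and 172 to 248 in epileptic sgKcna1 libraries. The 248 CPM was replicate 12, and the next highest of its group had 187 CPM. Of these 4 markers Csf1r alone passed the threshold in epileptic sgLacZ against control sgLacZ (log2 fold change 0.38, adjusted p = 0.0356). Summed T cell markers (3 of 3) reached at most 2.67 CPM in any library. Their part in the Kcna3 difference was not tested.

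Kcnab1, the subunit that gives Kv1 currents fast inactivation, was lower in epileptic sgLacZ libraries, in all 6 of them. Control sgLacZ libraries had 133, 141, 142, 144 and 149 CPM. Epileptic sgLacZ libraries had 107 to 127 CPM (median 113). Epileptic sgKcna1 libraries had 96.5 to 141 CPM (median 124). The control and epileptic sgLacZ groups did not overlap, as was so for Kcna6 and for 4.39% of all genes. The log2 fold change was -0.31 (SE 0.09, 95% interval -0.50 to -0.12, adjusted p = 0.0404), a fold of 0.806. Between the epileptic groups it was 0.09 (SE 0.09, adjusted p = 0.556), and in epileptic sgKcna1 against control sgLacZ it was -0.22 (SE 0.09, 95% interval -0.41 to -0.04, adjusted p = 0.682), with 5 of 6 libraries below every control library. None of the 9 genes had groups without overlap in the other comparisons, where 0.483% of all genes between the epileptic groups and 1.14% between epileptic sgKcna1 and control sgLacZ had them.

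The Kcnab1 difference was small and close to the threshold. Leaving out 1 library at a time gave log2 fold changes of -0.34 to -0.29, and 7 of these 17 fits kept the adjusted p under 0.05, with adjusted p from 0.0105 to 0.0986. These were the fits without epileptic sgLacZ replicate 5 or 8 or epileptic sgKcna1 replicate 1, 2, 3, 11 or 12. In those without epileptic sgLacZ replicate 4, 7 or 9 no gene of all tested passed. Without replicates 4 and 12 together the log2 fold change of Kcnab1 was -0.31 (adjusted p = 0.0276). With both strand counts added it was -0.25 (adjusted p = 0.0601), and the threshold was also missed without a filter on low counts and with the unmapped share or sex as a covariate.

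The promoter windows of Kcna3 and Kcnab1 from RefSeq (GRCm38.p6) are printed because these were the genes that passed, each 5′ to 3′ in the direction of the gene. Capitals mark GC boxes, GGGCGG on either strand, which Sp1 family factors can bind.
Kcna3 (chr3:107035912-107036211, + strand): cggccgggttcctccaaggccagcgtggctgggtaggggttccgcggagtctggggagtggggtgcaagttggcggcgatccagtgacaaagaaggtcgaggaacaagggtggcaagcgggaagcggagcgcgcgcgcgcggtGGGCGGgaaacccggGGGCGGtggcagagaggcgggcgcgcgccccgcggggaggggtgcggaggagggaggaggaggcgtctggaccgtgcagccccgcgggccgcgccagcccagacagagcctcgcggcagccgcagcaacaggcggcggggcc
Kcnab1, first start (chr3:64948962-64949261, + strand): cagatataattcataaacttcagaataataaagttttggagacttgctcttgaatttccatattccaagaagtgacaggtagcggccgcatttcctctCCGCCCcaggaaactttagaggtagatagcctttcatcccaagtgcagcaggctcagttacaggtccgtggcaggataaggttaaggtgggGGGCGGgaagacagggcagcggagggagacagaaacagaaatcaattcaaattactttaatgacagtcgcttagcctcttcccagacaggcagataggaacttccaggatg
Kcnab1, second start (chr3:65108764-65109063, + strand): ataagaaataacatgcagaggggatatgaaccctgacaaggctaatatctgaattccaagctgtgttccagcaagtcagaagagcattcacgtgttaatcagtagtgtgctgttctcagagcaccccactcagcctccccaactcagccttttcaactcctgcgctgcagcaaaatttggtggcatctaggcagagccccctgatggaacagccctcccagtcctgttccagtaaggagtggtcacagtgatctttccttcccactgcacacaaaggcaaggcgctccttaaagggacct
Kcnab1, last start (chr3:65187853-65188152, + strand): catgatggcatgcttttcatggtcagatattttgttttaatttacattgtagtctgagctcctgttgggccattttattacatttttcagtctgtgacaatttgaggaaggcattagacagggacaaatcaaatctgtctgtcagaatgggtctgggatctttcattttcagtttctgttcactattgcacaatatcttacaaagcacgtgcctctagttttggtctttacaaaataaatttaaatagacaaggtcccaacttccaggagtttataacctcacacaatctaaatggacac
The Kcna3 window was 75.0% G and C with 2 GC boxes, where the median over all promoter windows was 52.7%. The starts of Kcnab1 differed from each other, with 46.7%, 50.3% and 36.7% G and C. The first held 2 GC boxes, the second and the last each held the E-box CACGTG, and the last held a TATA box, TATAAA on either strand. GC boxes were found in 35.7% of all windows, TATAAA in 13.6% and CACGTG in 7.15%. Counts per gene do not show which start was used.

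Kcnab2, the most abundant of the 9 genes, had 434, 476, 496, 504 and 583 CPM in control sgLacZ libraries. Epileptic sgLacZ libraries had 507 to 815 CPM (median 615), 4 of them above every control library. Epileptic sgKcna1 libraries had 389 to 633 CPM (median 513). The groups overlapped in each comparison. The log2 fold change was 0.38 (SE 0.15, 95% interval 0.08 to 0.69, adjusted p = 0.0787) in epileptic sgLacZ against control sgLacZ and -0.37 (SE 0.14, 95% interval -0.66 to -0.08, adjusted p = 0.214) between the epileptic groups, so neither passed. It was 0.01 (SE 0.14, adjusted p = 0.989) in epileptic sgKcna1 against control sgLacZ. In the first comparison 2 of the 17 fits without a library passed. The adjusted p was 0.0260 without epileptic sgLacZ replicate 5 and 0.0428 without epileptic sgKcna1 replicate 12, with log2 fold changes of 0.44 and 0.38. In these fits 5526 and 4777 of all genes passed. Over the 17 fits the log2 fold change was 0.31 to 0.45, with adjusted p up to 0.181. Of 9 alternatives of processing 1 passed. With the unmapped share as a covariate the log2 fold change of Kcnab2 was 0.21 (adjusted p = 0.283).

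Kcna6, the alpha subunit beside Kcna1 on chr6, had 78.6, 81.1, 84.1, 84.2 and 84.2 CPM in control sgLacZ libraries. Epileptic sgLacZ libraries had 68.2 to 78.5 CPM (median 71.9), all below the controls. Epileptic sgKcna1 libraries had 69.1 to 127.3 CPM (median 78.9), with replicate 12 highest. The log2 fold change was -0.19 (SE 0.12, adjusted p = 0.281) in epileptic sgLacZ against control sgLacZ, 0.23 (SE 0.12, adjusted p = 0.278) between the epileptic groups and 0.04 (SE 0.12, adjusted p = 0.947) in epileptic sgKcna1 against control sgLacZ.

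The lower Kcna6 counts in epileptic sgLacZ libraries depended on how reads were assigned. Without strand information a read in the stretch shared by genes on opposite strands is counted for neither gene, and adding both strand counts recovers it. The sum exceeded the unstranded count of Kcna6 by a factor of 1.02 to 1.04 in control sgLacZ, 1.04 to 1.54 in epileptic sgLacZ and 1.01 to 1.09 in epileptic sgKcna1 libraries, highest in epileptic sgLacZ replicate 4. With both strands added Kcna6 had 77.1 ± 2.55 CPM (SD, n = 5) in control sgLacZ and 78.6 ± 9.39 (n = 6) in epileptic sgLacZ libraries, and the log2 fold change was 0.03 (adjusted p = 0.885). The same factor reached 1.13 for Kcnab1 and 1.43 for Kcnab3, both in epileptic sgLacZ libraries, and stayed at about 1.00 for the other genes that had reads. RefSeq lists no gene that overlaps Kcnab3, and it lists such genes for Kcna2 and Kcnab2, so these lists did not tell which counts differed. The strand sum may in turn hold reads of an overlapping transcript, so neither count is free of it.

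**Figure D4:**
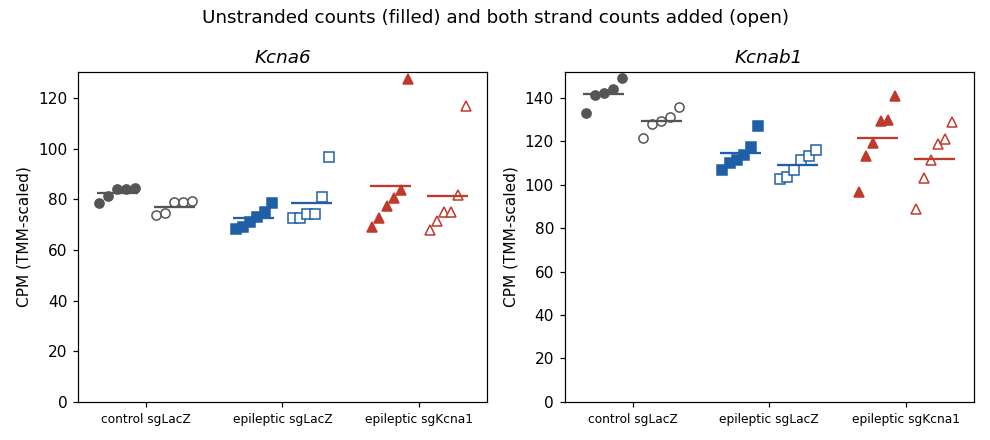
CPM (TMM-scaled, linear axes from 0) of Kcna6 and Kcnab1 in every library, from the unstranded counts (filled) and from both strand counts added (open); lines are group means. The gap between control sgLacZ and epileptic sgLacZ closes for Kcna6 with the strand sum, and for Kcnab1 the epileptic sgLacZ libraries stay below the controls.

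The other members did not pass in any comparison. Kcna4, the alpha subunit of A-type Kv1 channels, had 18.5 to 25.3 CPM in control sgLacZ libraries, 18.6 to 29.4 in epileptic sgLacZ and 19.0 to 25.3 in epileptic sgKcna1 libraries, with medians of 23.5, 21.6 and 22.7. Its log2 fold changes were -0.04 (SE 0.12, 95% interval -0.30 to 0.22), 0.00 (95% interval -0.25 to 0.25) and -0.04 (95% interval -0.30 to 0.22) in the order of the comparisons above, all with adjusted p of at least 0.833. Kcna5, on the other side of Kcna1 on chr6, was scarce, at 0.666 to 2.63 CPM in control sgLacZ, 1.19 to 3.64 in epileptic sgLacZ and 0.280 to 3.82 in epileptic sgKcna1 libraries. In the same order its log2 fold change was 0.39, 0.11 and 0.51 with SE of 0.47, 0.44 and 0.48, none past the threshold, and the intervals were wide, reaching up to 1.5. Kcnab3 had 19.5 to 28.3 CPM in control sgLacZ, 20.3 to 26.0 in epileptic sgLacZ and 10.8 to 43.1 in epileptic sgKcna1 libraries. The changes were -0.12, 0.10 and -0.01 on the log2 scale with SE of 0.22, 0.21 and 0.22. Neither neighbour of Kcna1 on chr6, Kcna5 or Kcna6, passed in epileptic sgKcna1 against epileptic sgLacZ libraries. No gene at all passed there in edgeR (0%), Kcna1 included, so this is no result about the neighbours. Kcna7 and Kcna10, the remaining genes of the family, had too few reads to be tested.

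Levels of different genes can be compared only per length. Per kb of exon (gene models of mm9, which may differ from those used in counting), mean levels in control sgLacZ libraries were 89.4 CPM per kb for Kcnab2, 50.2 for Kcna2, 16.5 for Kcnab1, 13.9 for Kcna6, 8.44 for Kcnab3, 4.75 for Kcna4, 3.91 for Kcna1, 0.47 for Kcna5 and 0.112 for Kcna3. Within libraries most neighbours in this order kept it, in 15 to 17 of 17 libraries. The exceptions were Kcna4 over Kcna1 and Kcna5 over Kcna3, each in 13 of 17, so these neighbours did not separate beyond their spread. The exon models spanned 1968 bases for Kcna3, 3456 for Kcna2 and 8970 for Kcna1, and a model that lacks part of a transcript raises the level per kb.

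Across the 17 libraries several of the genes moved with the share of unmapped reads, as descriptions over libraries that also differ in group and depth. Spearman's rho was -0.83 for Kcna3, -0.76 for Kcnab2 and 0.75 for Kcna6. Without replicates 4 and 12 (15 libraries) the values were -0.76, -0.65 and 0.66. All are from the unstranded counts, which for Kcna6 fell furthest below the strand sum in replicate 4. With both strand counts added, Kcna6 had 96.7 CPM in replicate 4 (71.1 unstranded) and 116.8 in replicate 12 (127.3 unstranded). Its rho with the unmapped share was not computed from the strand sum. For Kcna1 and Kcna2 rho was 0.40 and 0.41 over all 17. Replicate 12 was the highest library for Kcna1, Kcna2 and Kcna6 and the lowest for Kcna5, Kcnab2 and Kcnab3, and replicate 4 was the highest for Kcna3 and Kcnab2. With the share of unmapped reads as a covariate none of the 9 genes passed the threshold in epileptic sgLacZ against control sgLacZ, and 428 of all genes did.

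**Figure D5:**
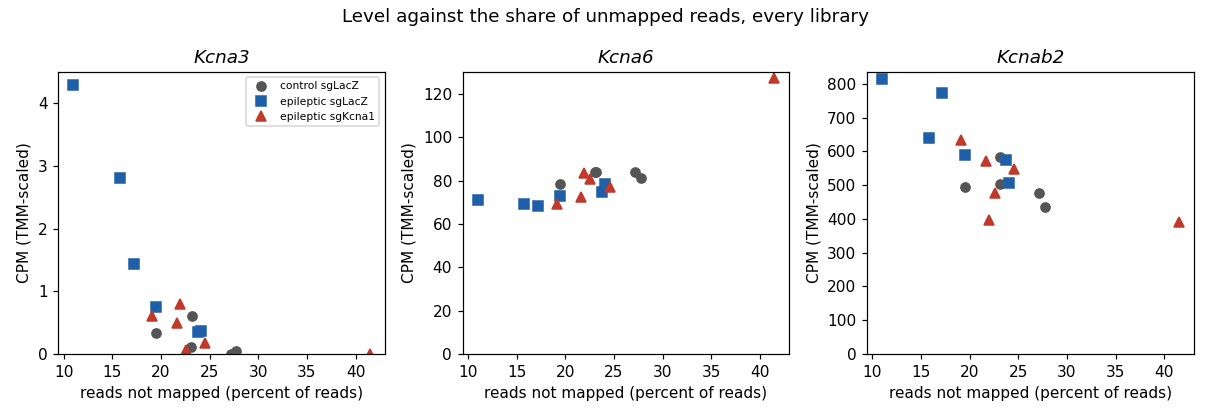
CPM (TMM-scaled, unstranded counts, linear axes from 0) of Kcna3, Kcna6 and Kcnab2 against the percent of reads not mapped, 1 point for each of the 17 libraries, by group. Kcna3 and Kcnab2 are highest at the low end, where epileptic sgLacZ replicate 4 stands at 11.0%, and Kcna6 is highest at 41.5%, epileptic sgKcna1 replicate 12.

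Among the 9 genes, Kcna1 was most like Kcna2 across libraries (rho 0.62 over 17 libraries, 0.72 after subtracting group means). Kcna2 was most like Kcna6 (0.65), Kcna3 was most like Kcnab2 (0.68), and Kcna6 and Kcnab2 ran opposite to each other (-0.83). After subtracting group means the nearest member was Kcna1 for Kcna2 (0.72, with Kcna6 at 0.47) and Kcna4 for Kcna3 (0.66, with Kcnab2 at 0.59). Of 11685 genes with a mean of at least 5 CPM, those with levels most like Kcna1 were Adcy1, a calcium-stimulated adenylyl cyclase of neurons (rho 0.92, Pearson's r 0.77), Myo6, an unconventional myosin (rho 0.90, r 0.91), and Zbtb4, a zinc finger protein that binds methylated DNA (rho 0.90, r 0.92). These likenesses are over the same 17 libraries and include the effect of replicate 12. They use the unstranded counts, which for Kcna6 fell furthest below the strand sum in epileptic sgLacZ replicate 4.

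Proteins that bind or place Kv1 channels at the axon initial segment, beside the node or at synapses were described from a list of 20 genes, of which 19 were matched and tested. In epileptic sgLacZ against control sgLacZ 2 of 19 were higher and none lower, beside 11.0% of all genes. The median log2 fold change of the list was 0.22, against 0.02 for all genes tested. Cntnap1, the paranodal adhesion protein Caspr, had 86.2 ± 7.76 CPM (SD, n = 5) in control sgLacZ, 147 ± 58.9 (n = 6) in epileptic sgLacZ and 94.6 ± 18.2 (n = 6) in epileptic sgKcna1 libraries. Its log2 fold change in epileptic sgLacZ against control sgLacZ was 0.77 (SE 0.22, adjusted p = 0.0387), and 0.42 (adjusted p = 0.105) with the unmapped share and 0.77 (adjusted p = 0.0545) with sex as a covariate. Without single libraries the log2 fold change of Cntnap1 was 0.57 to 0.90, and 9 of 17 such fits kept the call. It was lost without epileptic sgLacZ replicate 4 (0.57, adjusted p = 0.0919), 7 or 9 or any control library, and kept without replicates 4 and 12 together (0.57, adjusted p = 0.0245). Lgi4, a secreted protein of the LGI family known from myelinating glia, had 1.15 ± 0.432 CPM in control sgLacZ, 6.61 ± 4.20 in epileptic sgLacZ and 2.98 ± 1.48 in epileptic sgKcna1 libraries, with a log2 fold change of 2.51 (SE 0.48, adjusted p = 0.0310) in epileptic sgLacZ against control sgLacZ. Without single libraries that of Lgi4 was at least 2.21, and 10 of 17 such fits kept the call. It was lost without epileptic sgLacZ replicate 4 (2.21, adjusted p = 0.0678), 7 or 9 or control replicate 13, 14, 16 or 23, and kept without replicates 4 and 12 together (2.20, adjusted p = 0.0106). No gene of all tested passed without epileptic sgLacZ replicate 4, 7 or 9, so calls lost there are not particular to Cntnap1 or Lgi4.

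The Lgi4 value depended on strand far more than any Kv1 gene. Both strand counts added came to 19.5 to 55.4 times the unstranded count in control sgLacZ and 3.45 to 24.2 times in epileptic sgLacZ libraries, and with the strand sum its log2 fold change was 0.43 (adjusted p = 0.0268). Between the epileptic groups none of the 19 passed, beside 0% of all genes. Their median was -0.18, against -0.0059 for all genes tested. The smallest p values were those of Cntnap1 (log2 fold change -0.64, adjusted p = 0.213) and Lgi4 (-1.13, adjusted p = 0.213). Both passed in 1 of the 17 fits without a library, that without epileptic sgLacZ replicate 5, in which 1508 of all genes passed. There Cntnap1 had -0.76 (adjusted p = 0.0407) and Lgi4 had -1.33 (adjusted p = 0.0433), so these calls are not particular to them. With the strand sum of all libraries Lgi4 had -0.13 between the epileptic groups (adjusted p = 0.413). In epileptic sgKcna1 against control sgLacZ none passed, beside 0% of all genes, with a median of 0.13 against 0.016 for all genes tested. Lgi4 had a log2 fold change of 1.38 there (adjusted p = 0.674). With the unmapped share as a covariate it was 1.34 and passed (adjusted p = 0.0436), in a fit in which 266 of all genes passed. With the strand sum and no covariate it was 0.30 (adjusted p = 0.644).

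Markers of cell types are given for the same comparison as the Kv1 genes, in which 11.0% of all genes passed. In epileptic sgLacZ against control sgLacZ, 2 of 4 astrocyte markers were higher (Gfap 0.60, Aldh1l1 0.33 on the log2 scale), and Slc17a7 (0.77) and Wfs1 (0.49) were the excitatory neuron and CA pyramidal markers that passed, 1 of 4 in each list. Summed interneuron markers (5 of 5), cells in which Kv1 channels are also used, ranged from 1156 to 1441 CPM in control sgLacZ, 745 to 1310 in epileptic sgLacZ and 930 to 1377 in epileptic sgKcna1 libraries. No interneuron marker passed in epileptic sgLacZ against control sgLacZ. In edgeR the log2 fold changes there were -1.01 for Pvalb (adjusted p = 0.0524) and -0.80 for Sst (adjusted p = 0.0505). Those of Vip, Gad1 and Gad2 were -0.38, -0.12 and 0.27. Summed oligodendrocyte markers (4 of 4), the cells along which Kv1 channels are clustered, ranged from 5986 to 8618, from 4403 to 6595 and from 2461 to 9930 CPM, highest in replicate 12, and none passed. No marker of these lists, that of T cells aside, was at 0 in any library. The part of these cells in the Kv1 values was not tested.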

How the data were processed

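RNA-seq was done on 17 libraries of mouse hippocampus, grouped by their labels. The authors aligned reads to mm10 with STAR 2.7 and deposited raw counts per gene, unnormalized, for both strands together and for each strand. The labels name an unstranded kit and the study's methods a stranded one; the ratio of reverse to forward reads was 0.994 to 0.998, so the unstranded counts were used. Such counts leave out reads that map to several places and reads in genes that overlap.

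Genes were filtered with filterByExpr and scaled by TMM in edgeR 4.0.16 (R 4.3.3). All 17 libraries entered 1 fit by group without covariates, and 3 contrasts were tested by quasi-likelihood F tests (two-sided), adjusted (Benjamini-Hochberg) over 17615 genes, with a threshold of 0.05. The log2 ratio of Kcna1 to Kcna2 (0.5 reads added to each) was compared with a two-sided exact permutation test (scipy 1.17.1), adjusted over 3 contrasts. The study used DESeq2, which was an alternative here (1.42.0). Others were RLE scaling, no filter, limma voom 3.58.1 with sample quality weights, both strand counts added, the percent of unmapped reads or the sex read from Xist and Y-linked genes as a covariate, only the groups compared, and leaving out libraries. Sex was read as female where Xist reads exceeded the Y-linked sum, also in the libraries that held both. So read, control sgLacZ had 2 female and 3 male libraries. Epileptic sgLacZ had 4 female and 2 male, and epileptic sgKcna1 had 2 female and 4 male. Scripts were tested on simulated data. No pair of libraries of a group differed by as little as sampling noise (chi-square per degree of freedom at least 8.67 over 40 pairs, genes with 20 or more counts).

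The 9 genes and the partner and marker lists were chosen with earlier results of these data known. The text names all 9 genes, the 3 genes with the highest Spearman's rho with Kcna1, for other members the nearest member, and of the partner list the genes past the threshold or else the 2 with the smallest p. The values of 1 gene of that list are not reported here. The guide sequence was read from the study's supplement and promoters from RefSeq tables (GRCm38.p6). Promoters of Kcna1 and Kcnab3 were not analysed here.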

Additional observations from a re-analysis of the deposited data

Results flagged for a closer look

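Single libraries stood far from the others of their group in 4 of 30 sets of values tested by Dixon's test, where chance gives about 1 in 20. The sets share libraries and the ratio reuses the reads of Kcna1 and Kcna2. They are thus not independent, and the count cannot be weighed against that share. Kcna1 in epileptic sgKcna1 replicate 12 had 132.5 CPM. Kcna6 in the same library had 127.3 CPM, and its log2 ratio of Kcna1 to Kcna2 was -1.24. This library had 41.5% of its reads unmapped, and reads of Xist and Y-linked genes side by side, with the smaller at 18.3% of their sum. Its summed thalamus markers were 231 CPM, and the part of these measures in its values was not tested. Kcna4 in control sgLacZ replicate 23 had 18.5 CPM, below the other control libraries.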

How the results depend on the processing

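Fold changes and counts of calls were recomputed under 9 alternatives and without each library in turn, and the ratio of Kcna1 to Kcna2 where an alternative bears on it; likenesses between genes, levels per kb and marker sums were not. Removal of epileptic sgLacZ replicate 4 and epileptic sgKcna1 replicate 12 together was chosen after seeing the data. No paired analysis was possible because the groups share no replicate numbers. In epileptic sgLacZ against control sgLacZ, 1940 genes passed, and 3634 with DESeq2, 7301 with voom, 428 with the unmapped share and 516 with sex as a covariate, 3045 with only the 2 groups compared, 3106 without both libraries and 0 to 5526 without single libraries; it was 0 without epileptic sgLacZ replicate 4, 7 or 9 or control replicate 13, 14, 16 or 23, and 952 without epileptic sgLacZ replicate 6. Of the 9 Kv1 genes 2 passed there, 1 without a filter, 5 with voom and 1 with both strands added. The 5 with voom were Kcna3, Kcnab1, Kcna2 (-0.33, adjusted p = 0.0196), Kcna6 (-0.22, adjusted p = 0.0169) and Kcnab2 (0.38, adjusted p = 0.00994). DESeq2 gave no p for Kcna1 in this comparison either. None passed with the unmapped share or sex as a covariate. Without single libraries 0 to 4 passed, with 4 without epileptic sgKcna1 replicate 12. None passed without replicates 4, 6, 7 or 9 of epileptic sgLacZ, replicate 10 of epileptic sgKcna1 or any control library. Between the epileptic groups 0 genes passed, 134 with DESeq2, 1 without a filter, 12 with voom and 0 to 1508 without single libraries, the most without epileptic sgLacZ replicate 5. In epileptic sgKcna1 against control sgLacZ 0 passed, 39 with DESeq2, 71 with voom, 266 with the unmapped share, 88 without both libraries and 0 to 14 without single libraries. None of the 9 genes passed in these 2 comparisons under an alternative that gave it an adjusted p; DESeq2 gave none for Kcna1 in either, nor for Kcna3 between the epileptic groups.

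Directions that turned were in differences short of the threshold. In epileptic sgLacZ against control sgLacZ the log2 fold change of Kcna1 was 0.44 and of Kcna5 -0.34 with the unmapped share, of Kcna4 0.0073 with voom and 0.0065 with sex, and of Kcna6 0.029 and Kcnab3 0.10 with both strands added. Between the epileptic groups Kcna1 was -0.31 with voom, -0.85 with the unmapped share and -0.37 without both libraries; Kcna4 was -0.015 without a filter, -0.018 with voom and -0.062 with sex, where Kcna5 was -0.033 and Kcnab3 -0.0039. In epileptic sgKcna1 against control sgLacZ Kcna1 was -0.82 with voom, -0.41 with the unmapped share, -0.13 with sex and -0.87 without both libraries. There Kcna2 was -0.094 with voom and -0.082 without both libraries, Kcna6 was -0.10 with voom, -0.016 with the unmapped share and -0.11 without both, and Kcnab3 was 0.065 with voom, 0.10 with both strands and 0.12 without both. Without single libraries or both, Kcna4 ranged from -0.14 to 0.0047 in epileptic sgLacZ against control sgLacZ. Between the epileptic groups Kcna1 ranged from -0.65 to 0.62, Kcna4 from -0.045 to 0.099, Kcna5 from -0.18 to 0.63 and Kcnab3 from -0.15 to 0.26. In epileptic sgKcna1 against control sgLacZ Kcna1 ranged from -0.87 to 0.29, Kcna2 from -0.084 to 0.20, Kcna6 from -0.11 to 0.097, Kcnab2 from -0.065 to 0.073 and Kcnab3 from -0.26 to 0.12. The log2 ratio of Kcna1 to Kcna2 without single libraries was -0.25 to 0.037 in epileptic sgLacZ against control sgLacZ, -0.70 to -0.23 between the epileptic groups and -0.80 to -0.33 in epileptic sgKcna1 against control sgLacZ, and -0.80 without both libraries in the latter. The causes were not tested.

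Kcna3 and Kcna5 had few reads, so depth limits what can be said of them, and fold changes of Kcna6, Kcnab1 and Kcnab3, whose strand counts added up to more than the unstranded count, depend on which count is used.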
